A study of Caenorhabditis elegans with 6 samples.

Results

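The 10 genes described here make sperm or let sperm work in Caenorhabditis elegans. They are spe-6, spe-15, spe-4, spe-10, fer-1, spe-9, spe-38, gska-3, gsp-3 and gsp-4. Each was taken by its gene name from a count table of 46748 rows, and each name matched 1 row. Whole adult hermaphrodites of 3 strains were sequenced, with 2 libraries a strain. Hermaphrodites make their sperm as larvae and then turn to oocytes, so a gravid adult normally holds stored sperm but no longer transcribes most sperm genes. In spermatocytes, fibrous bodies made of major sperm protein form beside membranous organelles. These organelles later fuse with the cell surface when the sperm starts to crawl, and proteins on that surface then act in fertilisation. Sperm transcribe and translate little, so kinases and phosphatases carry much of the control of the finished cell.

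SIN is strain OD1175 and WT is strain OD1463. Animals of both carried the deletion allele csr-1(tm892) and a pair of transgenes, all homozygous. They came from mothers heterozygous over a balancer and were told apart by how they moved. N2, the standard laboratory strain, carried no transgene. As far as the study is known, SIN expresses CSR-1 that cannot cut RNA and WT expresses normal CSR-1. CSR-1 is a germline Argonaute guided by 22G RNAs, small RNAs antisense to germline transcripts. The labels do not give the promoters of the transgenes. Each library came from 100 gravid adults kept at 20 °C on OP50 bacteria. The libraries held 34654600 to 39865531 counts in SIN, 33739391 to 42126710 in WT and 42435429 to 44962816 in N2. The labels do not say whether replicates were separate cultures, so p-values measure how these libraries vary, and that variation may be technical. Reads of csr-1 were at 2913 and 3308 CPM (counts scaled to library size) in SIN, 662 and 636 in WT, and 445 and 476 in N2, and a gene count does not separate a transgene from the deletion allele.

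Most of these sperm genes rose in SIN. Of the 9 genes tested, 6 rose and 0 fell in SIN versus WT, where 12.1% of the 15404 genes tested rose and 13.3% fell. The 6 were fer-1, spe-9, gska-3, spe-15, spe-4 and spe-6. "Rose" and "fell" mean an adjusted p below 0.05 in the quasi-likelihood test of edgeR, with p-values adjusted over all genes tested by Benjamini and Hochberg's method. The median log2 fold change of the 9 was 1.86, beside 0.04 for all genes. Among genes within the 9 genes' range of mean level, 0.174 to 25.5 CPM, 11.2% rose. Both SIN libraries lay above both WT libraries in 9 of the 10 genes, an order found in 38.4% of all genes tested, and gsp-4 was the exception. The tenth gene, spe-38, fell short of the filter on low counts, and spe-10 passed it through its SIN libraries alone, so the counts and medians over the tested genes are descriptions. Without any 1 of the SIN or WT libraries only spe-15 remained called of the 6, and the calls over all genes numbered 361 to 609 in place of 3922.

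**Figure D1:**
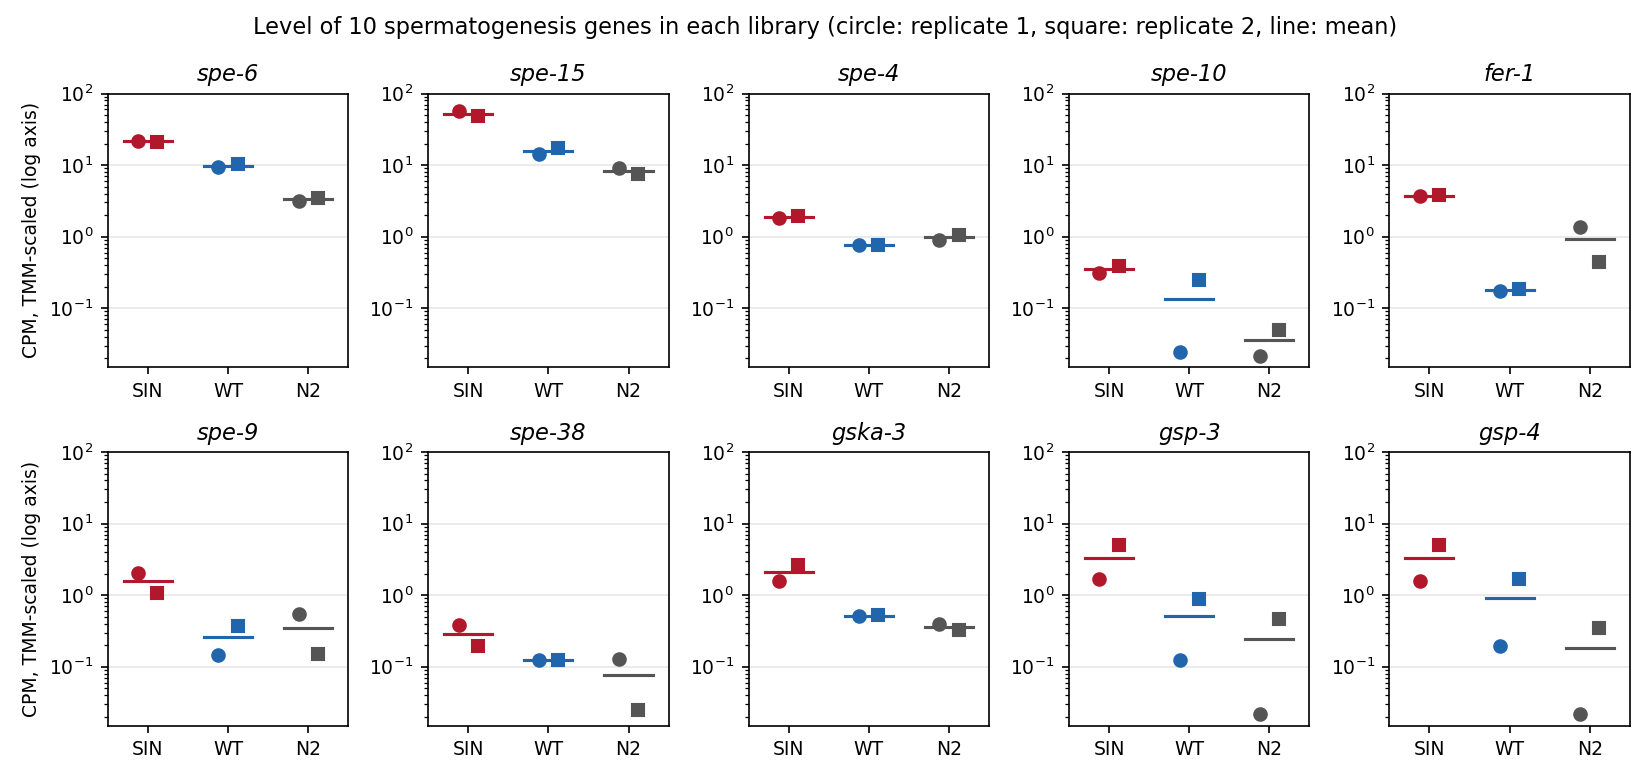
Level of each of the 10 genes in CPM (log axis) in the SIN, WT and N2 libraries, with a circle for replicate 1, a square for replicate 2 and a line for the mean of both. SIN libraries lie above WT and N2 libraries except where the second WT library of gsp-4 (1.66 CPM) passes the first SIN library (1.60 CPM), and the levels span 0.0216 to 56.7 CPM.

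The genes of spermatocytes and of the fibrous body and membranous organelle complex were led by spe-15 and spe-6. The gene spe-15 encodes a myosin VI, a motor that helps to sort contents between the budding spermatid and the residual body. Its level was 56.7 and 47.995 CPM in SIN, 14.3 and 17.2 CPM in WT, with 8.99 and 7.59 CPM in N2. The groups did not overlap, and SIN was highest and N2 lowest. It rose 3.33-fold in SIN versus WT (log2 1.73 ± 0.17 SE, adjusted p = 0.00219) and 6.31-fold in SIN versus N2 (log2 2.66 ± 0.18, adjusted p = 0.000376). Its WT libraries lay above both N2 libraries, at a log2 difference of 0.92 ± 0.17 that did not pass the test (adjusted p = 0.096). This difference was called by DESeq2 (adjusted p = 0.000149) and by edgeR with no filter (1.39e-05). The call in SIN versus WT held with any 1 of the 6 libraries left out, with an adjusted p of at most 0.0414.

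The gene spe-6 encodes a casein kinase 1 family protein that spermatocytes need to assemble major sperm protein into fibrous bodies and that holds spermatids back from activation. It stood at 21.99 and 20.9 CPM in SIN, 9.29 and 10.3 CPM in WT, with 3.18 and 3.44 CPM in N2. As with spe-15, the 3 groups were ordered SIN, WT, N2 with no overlap. It rose 2.19-fold in SIN versus WT (log2 1.13 ± 0.16, adjusted p = 0.00674) and 6.48-fold in SIN versus N2 (log2 2.70 ± 0.17, adjusted p = 0.000336). It was also the single gene of the 10 that rose in WT versus N2, 2.96-fold (log2 1.57 ± 0.16, adjusted p = 0.0473). That call was lost under upper-quartile scaling (adjusted p = 0.0512), in a fit of WT and N2 alone (0.196), and without any 1 of the SIN or WT libraries (0.213 to 0.533).

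The gene spe-4 encodes a presenilin, a membrane protease of the membranous organelles. Its level was 1.79 and 1.95 CPM in SIN, 0.758 and 0.767 CPM in WT, with 0.908 and 1.06 CPM in N2. SIN was above both other strains, and here WT lay below N2. It rose 2.45-fold in SIN versus WT (log2 1.29 ± 0.30, adjusted p = 0.0259). In SIN versus N2 the log2 difference of 0.92 ± 0.29 did not pass the test (adjusted p = 0.0619), nor did that of -0.37 ± 0.30 in WT versus N2 (adjusted p = 0.522).

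The gene spe-10 encodes a palmitoyltransferase with a DHHC domain, needed for normal fibrous bodies and membranous organelles. It had few reads, 13 and 14 in SIN, 1 and 8 in WT, and 1 and 2 in N2. SIN libraries were the highest, at 0.311 and 0.391 CPM, and the 2 WT libraries lay far apart, at 0.0245 and 0.245 CPM. The log2 difference in SIN versus WT was 1.43 ± 0.88 (adjusted p = 0.277), and it was 0.49 without WT replicate 1 and 3.68 without WT replicate 2. Against the 3 reads of N2, the ratio of scaled counts in SIN was 10.04, with a 95% exact counting interval of 3.09 to 51.7 (edgeR adjusted p = 0.0626). EdgeR called this difference with no filter (adjusted p = 0.00706) and with replicate number as a block (0.0318). It was also called in an edgeR fit of SIN and N2 alone (0.0412) but not by DESeq2 (0.11). The 9 WT reads gave a ratio to N2 of 3.54, with an interval of 0.883 to 20.3 (adjusted p = 0.421).

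The largest rise belonged to fer-1, which encodes a ferlin, a calcium-binding membrane protein that membranous organelles need to fuse with the plasma membrane. It had 154 and 137 reads in SIN, 7 and 6 in WT, and 64 and 18 in N2. These are 3.68 and 3.82 CPM in SIN, 0.171 and 0.184 CPM in WT, with 1.38 and 0.445 CPM in N2. The SIN libraries were within 1.04-fold of each other, WT was nearly without reads, and N2 lay between with its 2 libraries 3.11-fold apart. It rose 20.8-fold in SIN versus WT (log2 4.38 ± 0.60, adjusted p = 0.00652), above 99.3% of all fitted changes, and 4.07-fold in SIN versus N2 (log2 2.02 ± 0.51, adjusted p = 0.0318). The log2 change in SIN versus N2 was 3.06 without the first N2 library and 1.43 without the second. That call was lost in a fit of SIN and N2 alone (adjusted p = 0.0717) and without any 1 of the SIN or WT libraries (0.0619 to 0.155). In WT versus N2 fer-1 had a log2 difference of -2.36 ± 0.60 (adjusted p = 0.14). This passed the test without the second N2 library (adjusted p = 0.000849), under DESeq2 (0.0239) and with no filter (0.000101).

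Of the fertilisation genes, spe-9 rose. It encodes a transmembrane protein of the sperm surface with EGF repeats, without which sperm reach the oocyte but do not fertilise it. It had 85 and 39 reads in SIN, 6 and 12 in WT, and 25 and 6 in N2, or 2.03 and 1.09 CPM, 0.147 and 0.368 CPM, and 0.540 and 0.148 CPM in those strains. Both SIN libraries were above the other 4, while WT and N2 overlapped. It rose 6.14-fold in SIN versus WT (log2 2.62 ± 0.74, adjusted p = 0.0451), and the log2 change ran from 2.07 to 3.38 with 1 of the SIN or WT libraries left out. In SIN versus N2 its edgeR adjusted p was 0.0663, beside 0.000346 with no filter and 0.0411 with replicate number as a block. DESeq2 gave an adjusted p of 0.0511 there. The log2 difference in SIN versus N2 was 2.16 ± 0.70. It was 3.36 without N2 replicate 1, where it passed the test (adjusted p = 0.00726), and 1.53 without N2 replicate 2. In WT versus N2 it was -0.46 ± 0.77 (adjusted p = 0.76).

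The gene spe-38, which encodes a sperm membrane protein that spans the membrane 4 times and acts in fertilisation, had 16 and 7 reads in SIN, 5 and 4 in WT, and 6 and 1 in N2. It was too low for the test. The SIN libraries were the highest, at 0.382 and 0.195 CPM, beside 0.122 and 0.123 CPM in WT, with 0.130 and 0.0247 CPM in N2. The ratio of scaled counts was 2.42 in SIN versus WT (interval 1.08 to 5.94) and 3.67 in SIN versus N2 (1.52 to 10.1), and these intervals cover counting error only. With no filter, an alternative added after the data were seen, spe-38 was not called in SIN versus WT (adjusted p = 0.409), SIN versus N2 (0.133) or WT versus N2 (0.791).

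A further kinase of the set, gska-3, is a sperm member of the glycogen synthase kinase 3 family and acts in sperm motility. Its level was 1.58 and 2.62 CPM in SIN, 0.513 and 0.522 CPM in WT, with 0.389 and 0.322 CPM in N2. The SIN libraries differed 1.66-fold but both stood clear of the other strains. It rose 4.03-fold in SIN versus WT (log2 2.01 ± 0.39, adjusted p = 0.0153) and 5.85-fold in SIN versus N2 (log2 2.55 ± 0.40, adjusted p = 0.00792). The second call was lost without the second SIN library (adjusted p = 0.0622). In WT versus N2 the log2 difference was 0.54 ± 0.41 (adjusted p = 0.491).

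The phosphatases gsp-3 and gsp-4 are nearly identical catalytic subunits of protein phosphatase 1 that act in sperm meiosis and motility, so reads may have been divided between or dropped from the pair. The level of gsp-3 was 1.67 and 4.97 CPM in SIN, 0.122 and 0.890 CPM in WT, with 0.0216 and 0.470 CPM in N2. For gsp-4 it was 1.60 and 5.02 CPM in SIN, 0.196 and 1.66 CPM in WT, with 0.0216 and 0.346 CPM in N2. In each strain replicate 2 was well above replicate 1, and for gsp-4 the second WT library exceeded the first SIN library.

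Neither phosphatase passed the edgeR test of the filtered counts. DESeq2 called both in SIN versus N2 (adjusted p = 0.0103 for gsp-3 and 0.00347 for gsp-4) but not in SIN versus WT. With no filter, edgeR called gsp-3 in SIN versus WT (adjusted p = 9.74e-08) and SIN versus N2 (5.17e-13). It also called gsp-4 there (adjusted p = 0.000228 and 2.51e-15). In WT versus N2 the fit with no filter called gsp-4 (adjusted p = 9.01e-05) but not gsp-3 (0.21). The log2 difference of gsp-3 was 2.74 ± 1.25 in SIN versus WT (adjusted p = 0.167) and 3.77 ± 1.33 in SIN versus N2 (adjusted p = 0.0902). That of gsp-4 was 1.86 ± 1.20 (adjusted p = 0.311) in SIN versus WT and 4.19 ± 1.40 (adjusted p = 0.0798) in SIN versus N2. Single libraries moved these values. In SIN versus WT, gsp-3 was at 1.74 without SIN replicate 2 and 4.73 without WT replicate 2, and gsp-4 at 0.80 and 4.07 without the same libraries. The log2 difference in SIN versus N2 was 2.78 without SIN replicate 2 and 7.06 without N2 replicate 2 for gsp-3, and 3.13 and 7.05 for gsp-4 without the same libraries. With the pair summed, the log2 difference was 2.23 ± 1.29 in SIN versus WT (adjusted p = 0.261) and 3.97 in SIN versus N2 (adjusted p = 0.0951). WT versus N2 gave log2 differences of 1.03 for gsp-3 (adjusted p = 0.701) and 2.33 for gsp-4 (adjusted p = 0.398).

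The gap between replicates of gsp-3 and gsp-4 had the size of that in the major sperm protein (msp) genes, which encode the cytoskeletal protein of the crawling sperm. On the log2 scale, replicate 2 exceeded replicate 1 by 1.57 in SIN, 2.86 in WT and 4.44 in N2 for gsp-3, and by 1.65, 3.08 and 4.002 in those strains for gsp-4. The median over the 24 msp genes tested was 1.54 in SIN, 3.88 in WT and 3.62 in N2, with all 24 higher in replicate 2 in each strain. Summed msp levels were 16.8 and 47.4 CPM in SIN, 2.64 and 40.4 CPM in WT, with 1.62 and 14.7 CPM in N2. Of the other genes of the set, spe-10 was also higher in replicate 2, by 0.33 in SIN, 3.33 in WT and 1.19 in N2, with 1 to 14 reads a library. In N2, fer-1, spe-9 and spe-38 were lower in replicate 2, by log2 differences of -1.64, -1.86 and -2.39. In WT all 9 tested genes of the set were higher in replicate 2, spe-9 by 1.33, where 7774 of the 15404 genes tested were. The part that a varying sperm content of the libraries had in the 10 genes was not tested, and in whole animals fewer cells of a type cannot be told apart from less RNA per cell.

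**Figure D2:**
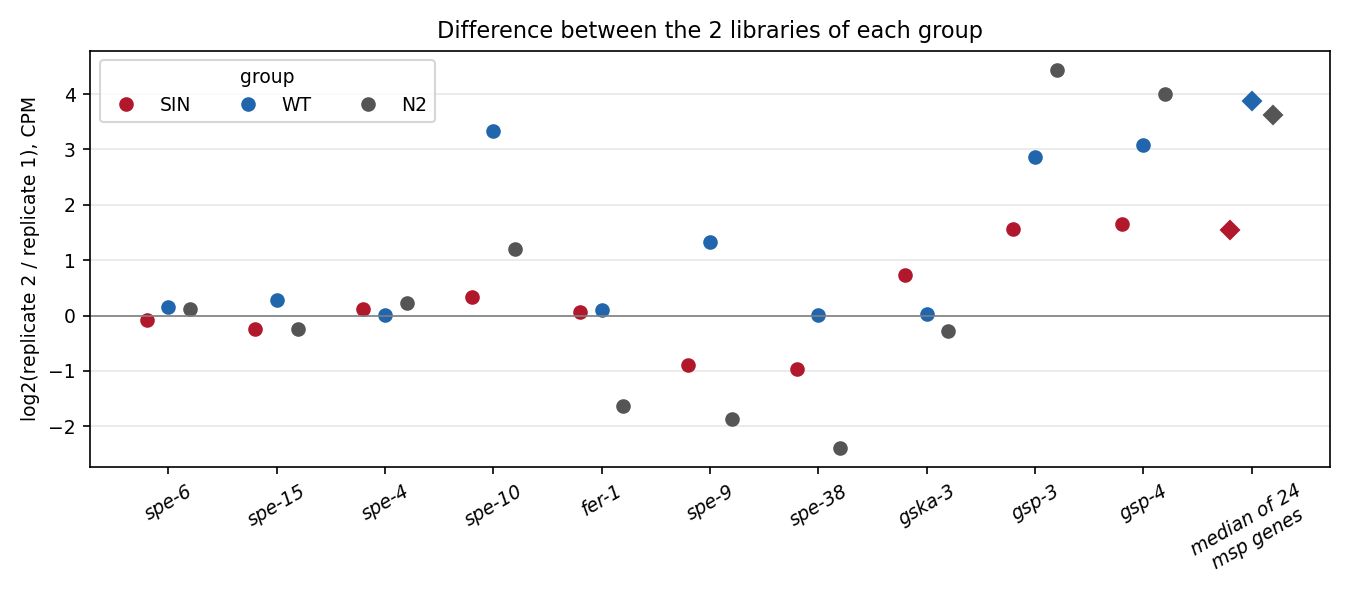
Log2 ratio of replicate 2 to replicate 1 (CPM) for each gene in SIN, WT and N2, with the median of 24 msp genes as diamonds. The gaps of gsp-3 and gsp-4, 1.57 to 4.44, lie near those of the msp genes, 1.54 to 3.88, while spe-6, spe-15 and spe-4 lie near 0.

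Against N2, SIN was higher in each of the 10 genes. Both SIN libraries were above both N2 libraries in all 10, an order found in 29.6% of all genes tested. In SIN versus N2, spe-6, spe-15, gska-3 and fer-1 rose and 0 of the 9 tested fell, where 12.3% of all genes tested rose and 13.3% fell. The median log2 fold change was 2.66, beside -0.07 for all genes. The other 5 tested genes missed the threshold, with adjusted p-values of 0.0619 to 0.0902. Without the second SIN library 2 of the 9 were called, without the first or without either WT library 3, and with no filter 8. Embryonic markers moved in the same comparison, where 6 of 11 tested fell and 0 rose, with a median log2 difference of -1.50. Their count of falls was 0 without either SIN library, without WT replicate 2 or in a fit of SIN and N2 alone, and 1 without WT replicate 1. Their part in the values of the sperm genes was not tested.

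WT and N2 differed in spe-6 alone by the edgeR test, where 0.0454% of all genes tested rose. DESeq2 called 3 of the set, fer-1, spe-6 and spe-15, and 1151 genes in all. Both WT libraries were above both N2 libraries in 3 genes, spe-6, spe-15 and gska-3, an order found in 25.4% of all genes tested. They were below both in 2, fer-1 and spe-4, an order found in 27.7%. The other 5 overlapped. Any 2 of the 3 comparisons share the libraries of 1 strain, so their fold changes are not independent of each other.

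**Figure D3:**
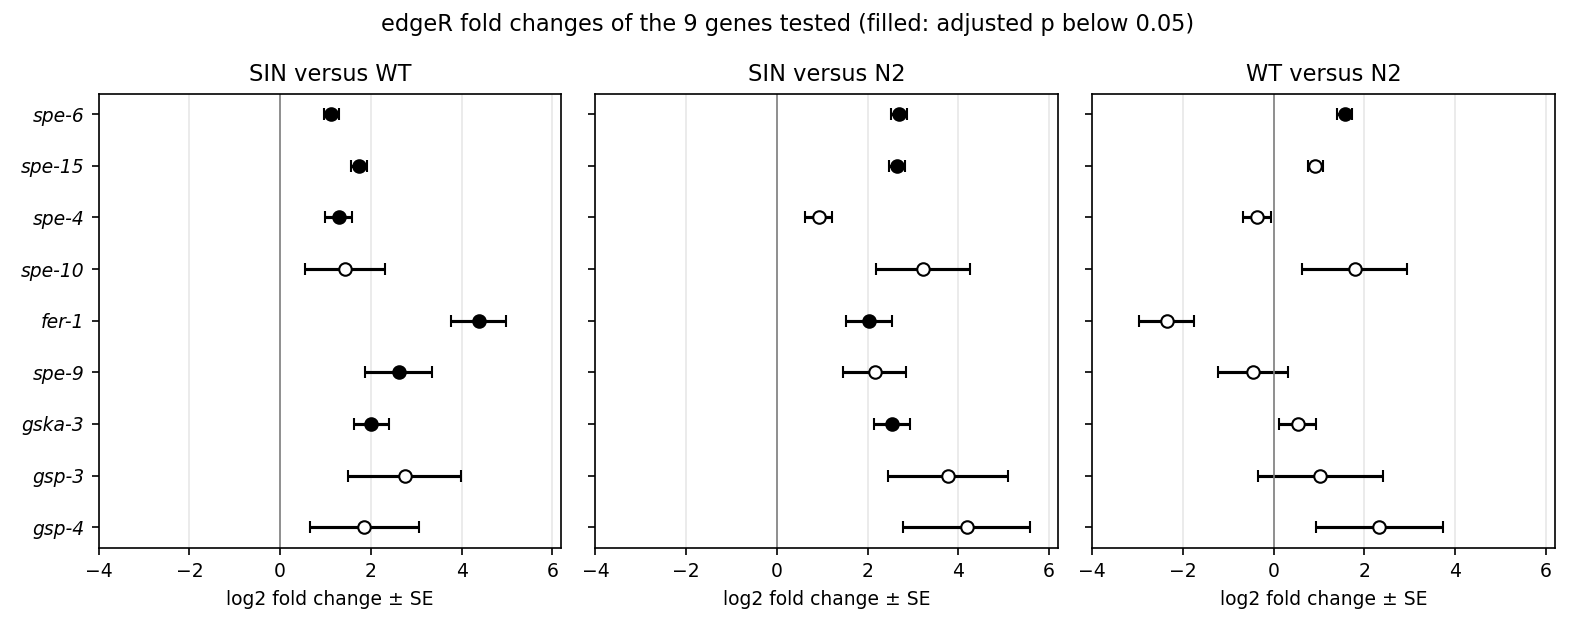
Log2 fold change ± SE of the 9 genes tested, in SIN versus WT, SIN versus N2 and WT versus N2, with filled points for an adjusted p below 0.05. All 9 lie above 0 in both SIN comparisons, with 6 and 4 filled, and in WT versus N2 they run from -2.36 for fer-1 to 2.33 for gsp-4 with spe-6 filled.

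Levels of different genes were compared per length, as reads scaled to gene length and library size (RPKM). In SIN, spe-6 came first with 18.7 ± 0.89 RPKM and spe-15 next with 13.2 ± 1.7 RPKM (SD, n = 2). These 2 stood above the median tested gene of SIN, 5.82 RPKM, and the other 7 tested were below it. In WT, spe-6 had 7.96 ± 0.56 RPKM and spe-15 3.70 ± 0.48 RPKM, and in N2 they had 2.75 ± 0.0037 and 2.00 ± 0.35 RPKM. The next genes in SIN were gsp-3 with 3.29 ± 2.3 RPKM, gsp-4 with 2.42 ± 1.8, gska-3 with 1.72 and spe-4 with 1.29, and these means lie closer than the spread of the phosphatases. The lowest in SIN were spe-9 with 0.795 RPKM, fer-1 with 0.586, spe-38 with 0.458 and spe-10 with 0.298. So fer-1, with the largest fold of the set in SIN versus WT but not in SIN versus N2, was among the least abundant of the set, with 0.0258 RPKM in WT and 0.139 RPKM in N2.

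Relatives of these genes, listed as used beyond sperm, were compared in the same fit. The list held 9 rows of the table, and 0 rose and 1 fell in SIN versus WT, with a median log2 fold change of -0.13. In it, dhhc-5 was near the floor, at 0.382 and 0.251 CPM in SIN, 0.171 and 0 in WT, and 0.151 and 0.371 in N2. These levels do not show use beyond sperm. Its log2 difference in SIN versus WT was 1.76 ± 1.04 (edgeR adjusted p = 0.262), and 2 of the 9 were above 0 there. Of all genes tested, 12.1% rose and 13.3% fell there, so 1 fall of 9 is near the share over all genes. The gene that fell was hop-1, a presenilin active outside sperm, at 40.2 and 34.5 CPM in SIN, 56.9 and 56.4 CPM in WT, with 48.9 and 50.3 CPM in N2 (log2 -0.60 ± 0.11, adjusted p = 0.0138). The broadly used phosphatase subunits gsp-1 and gsp-2 had 111 and 330 RPKM in SIN, 101 and 311 RPKM in WT, and 108 and 314 RPKM in N2. The kinase gsk-3 had 62.0 RPKM in SIN, 59.3 RPKM in WT and 65.2 RPKM in N2. In each strain gsp-1, gsp-2 and gsk-3 were thus far above gsp-3, gsp-4 and gska-3. For myosin VI the order turned, since hum-8 had 4.48 RPKM in SIN against 13.2 RPKM of spe-15, but 5.61 RPKM in WT and 6.60 RPKM in N2. The call of hop-1 was lost without SIN replicate 2 or either WT library. In SIN versus N2, 4 relatives (sel-12, hop-1, kin-20 and hum-8) fell and 0 rose, where 13.3% of all genes tested fell. This count was 2 under RLE scaling, 0 under upper-quartile scaling, 0 in a fit of SIN and N2 alone, 0 without SIN replicate 1 or either WT library and 1 without SIN replicate 2. In WT versus N2 edgeR called 0 of the relatives (0 with an unadjusted p below 0.05) and DESeq2 0.

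**Figure D4:**
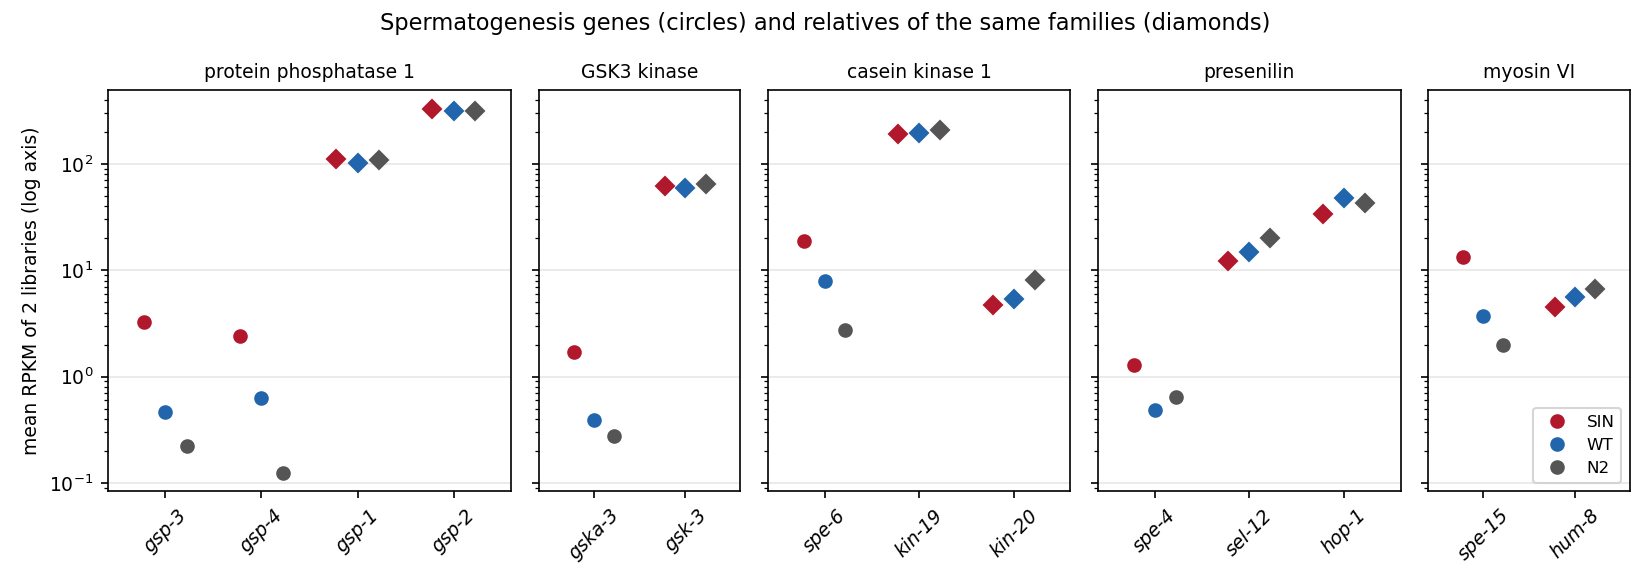
Mean RPKM of 2 libraries (log axis) in SIN, WT and N2, for 6 of the sperm genes (circles) and their relatives (diamonds) by protein family. Circles are highest in SIN, whereas gsp-1, gsp-2, gsk-3 and kin-19 differ little between strains, as for gsp-2 at 330, 311 and 314 RPKM in SIN, WT and N2. The diamonds of sel-12, hop-1, kin-20 and hum-8 are lowest in SIN. For sel-12 they are at 12.1, 14.9 and 20.0 RPKM in SIN, WT and N2.

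A list of 39 further sperm genes was not limited to genes used in sperm alone. In it, wee-1.3 and spe-39 had at least 276 and 82.6 CPM in every library. Of the 39, 34 were tested, and in SIN versus WT 7 rose and 1 fell, with a median log2 fold change of 0.84. Beside them, 12.1% of all genes tested and 20.9% of the germline-enriched genes tested rose, so the list's count is close to the germline-enriched share. They include cpb-2, an RNA-binding protein of the CPEB family (3.93-fold, adjusted p = 0.0102), spe-26, a kelch-repeat protein of spermatocytes (3.52-fold, adjusted p = 0.019), and try-5, a seminal fluid protease that activates sperm (4.93-fold, adjusted p = 0.0229). The sperm activation genes spe-19 and spe-8 also rose, with 43 and 48 reads in SIN beside 1 and 2 reads in WT. Both passed the filter on low counts through their SIN libraries alone, so their calls are descriptions. Their count ratios were 40.7 (interval 6.92 to 1644) and 22.7 (5.95 to 193), with adjusted p-values of 0.0174 and 0.0237. The remaining rises were spe-46 and smz-1.

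The gene that fell was spe-44, a transcription factor that switches on the sperm programme in spermatocytes. It stood at 11.1 and 10.05 CPM in SIN, 22.5 and 18.99 CPM in WT, with 14.4 and 10.2 CPM in N2 (log2 -0.97 ± 0.21 in SIN versus WT, adjusted p = 0.0211). The calls of cpb-2, spe-26, try-5, spe-19, spe-8 and spe-44 were each lost without any 1 of the SIN or WT libraries. In SIN versus N2, 9 rose and 0 fell, and in WT versus N2 edgeR called 0 (3 with an unadjusted p below 0.05) and DESeq2 1. Without a SIN library, 0 rose in SIN versus N2.

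By the edgeR test of the filtered counts, the msp genes were not called in any comparison. Of 35, 24 were tested, and 0 rose or fell in SIN versus WT, SIN versus N2 or WT versus N2 (0 with an unadjusted p below 0.05), with median log2 differences of 0.61, 2.25 and 1.48. DESeq2 called 1 in SIN versus N2. With no filter 4, 19 and 12 rose. With replicate number as a block, 0 rose in SIN versus WT and 13 in SIN versus N2. Of the 24, 20 had a log2 difference above 0 in SIN versus WT. In SIN versus N2 and in WT versus N2 all 24 did.

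In SIN versus WT, 12.1% of all genes tested rose and 13.3% fell. Among the genes that set germ cell sex, 6 of 14 rose and 2 fell in that comparison. The count of falls is thus near the share over all genes. The rises were fog-3, fog-1, her-1, mog-5, mog-1 and mog-4, and the falls fem-2 and gld-1. They go both ways by role, since fog-1, fog-3 and fem-2 promote sperm fate, her-1 promotes male fate, and the mog genes act in the switch to oocytes. Without any 1 of the SIN or WT libraries 2 to 3 rises and 0 to 1 falls were called. The gene fog-3 stood at 55.7 and 37.1 CPM in SIN, 2.59 and 2.12 CPM in WT, with 0.865 and 1.39 CPM in N2 (19.6-fold in SIN versus WT, adjusted p = 0.000825). The gene fog-1 stood at 126 and 82.8 CPM in SIN, 29.8 and 28.0 CPM in WT, with 25.9 and 26.2 CPM in N2 (3.60-fold in SIN versus WT, adjusted p = 0.00296). Of 15 oocyte and eggshell genes, 2 rose and 7 fell, but 2 fell under upper-quartile scaling and 0 rose or fell without any 1 of the SIN or WT libraries. Their summed levels were 11819 and 11344 CPM in SIN, 13710 and 13074 CPM in WT, with 13516 and 12655 CPM in N2. Of 11 embryonic genes tested, edgeR called 0 in SIN versus WT (1 with an unadjusted p below 0.05), DESeq2 called 1 fall, and the fits of SIN and WT alone and with no filter each called 4 falls and 1 rise. Their sum was 134 and 127 CPM in SIN, 158 and 151 CPM in WT, with 281 and 174 CPM in N2. The N2 library with more embryonic RNA was also the one with more fer-1 and spe-9, and its part in the N2 comparisons was not tested. Of 7 genes of intestine, muscle and neurons, edgeR called 0 in SIN versus WT (2 with an unadjusted p below 0.05), DESeq2 called 1 rise, and a fit of SIN and WT alone called 2 rises and 1 fall.

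The deposited table also carries 22G RNA values from earlier studies, which describe genes and not these animals. All of the 10 but spe-38 are on its list of genes with 22G RNAs in a CSR-1 immunoprecipitate. This list holds 5517 rows, 11.8% of the table, and 5253 of the 15404 genes tested. In the authors' deposited table the highest was fer-1, with 241 RPM (reads scaled to library size) in the immunoprecipitate, above 98.9% of listed genes. Next came gska-3 with 113 RPM, above 91.2%, while spe-9 was lowest with 17.8 RPM, above 22.6%. The other 6 lay between 51.5 RPM for spe-6 and 79.1 RPM for gsp-4, and the median listed gene had 36.9 RPM. The authors' deposited enrichment score ordered the genes differently. It is taken here as a fraction that is higher where the immunoprecipitate holds more of a gene's 22G RNA than the input does. The column header gives no formula. In the authors' deposited table it was 0.921 for spe-15, 0.904 for fer-1, 0.866 for gsp-4 and 0.865 for gsp-3, above the list median of 0.859. It was 0.842 for spe-6, 0.841 for spe-9, 0.763 for spe-4, 0.728 for spe-10 and 0.708 for gska-3, below that median. Among genes on this list, 16.6% of those tested rose in SIN versus WT.

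**Figure D5:**
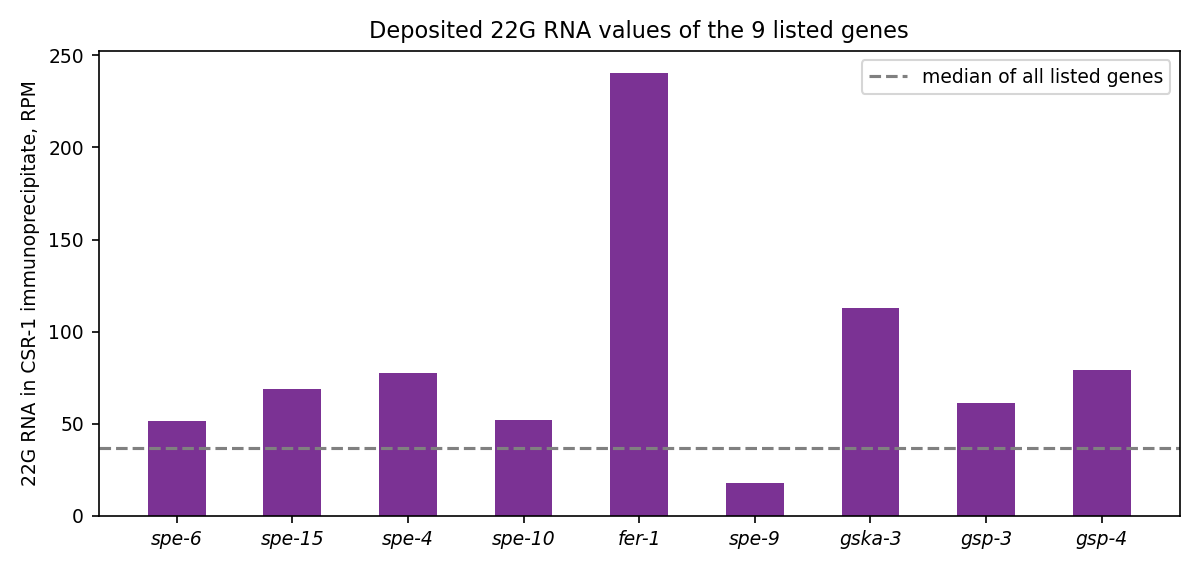
22G RNA values (RPM) of the authors' deposited table in a CSR-1 immunoprecipitate for the 9 listed genes, 1 bar each with no replicates, with a dashed line at the median of all listed genes (36.9 RPM). The bars run from 17.8 RPM for spe-9, the one below the line, to 241 RPM for fer-1.

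None of the 10 is on the table's other list of genes with 22G RNA reads, which holds 4133 genes, 3735 of them also among the 5517 on the first. The germline classes of the table mark 4 of the 10 as germline expressed by SAGE (spe-6, spe-15, gsp-3 and gsp-4). They mark 5 as germline enriched by microarray (fer-1, spe-15, gska-3, gsp-3 and gsp-4). Of the 15404 genes tested, 4624 carry the SAGE mark and 2713 the microarray mark. None of the 10 is marked germline specific, a class that holds 2.26% of the table's rows. Of the germline-enriched genes tested, 20.9% rose in SIN versus WT. The authors' deposited table gives its own log2 fold changes of SIN to WT, of 2.45 for fer-1 (adjusted p = 1.59e-08), 1.63 for spe-15 (4.84e-17), 1.36 for gska-3 (0.00247) and 0.951 for gsp-3 (0.0386). The authors' deposited table also gives 1.07 for spe-6 (adjusted p = 3.00e-08), 1.19 for spe-9 (0.0136) and 0.957 for spe-4 (0.0259). It lists no adjusted p for spe-10 and spe-38. The edgeR fit gave log2 changes of 4.38 for fer-1 and 2.62 for spe-9, so these measures are unlike. The authors' deposited table thus puts gsp-3 past 0.05, unlike the test here, and leaves gsp-4 at 0.153.

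Of the 10 genes, 8 lie on chromosome I, which holds 14.4% of protein-coding genes in the WBcel235 annotation. These are spe-15 (1446497 to 1465358, plus strand), gsp-4 (3838237 to 3839673, minus), gsp-3 (4709259 to 4710712, minus), spe-4 (7454660 to 7456953, plus), fer-1 (8623012 to 8631202, minus), gska-3 (8749616 to 8751358, minus), spe-38 (10964472 to 10966382, minus) and spe-9 (11582743 to 11586069, minus). The others are spe-6 on chromosome III (11505488 to 11508930, plus) and spe-10 on chromosome V (10384250 to 10385740, plus). The annotation places gst-25 on the strand opposite spe-15, non-coding RNAs opposite fer-1, C17D12.5 opposite spe-9 and impt-1 on the strand of spe-38. Reads of such pairs may not be separate in these counts.

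The profile of the tested genes over the 6 libraries, the mean of their standardised log2 CPM, was compared with 11631 other genes of at least 1 CPM. The most alike were F58D5.7, D1037.5, kel-10, acs-10 and clec-123, with Pearson correlations of 0.9941 to 0.9955. The 6 points come from 3 strains, and 7.51% of the genes compared reached 0.9, so the likeness is a description. F58D5.7 stood at 3.51 and 4.63 CPM in SIN, 0.196 and 0.736 CPM in WT, with 0.238 and 0.272 CPM in N2. The gene kel-10 stood at 2.06 and 3.71 CPM in SIN, 0.171 and 0.430 CPM in WT, with 0.130 and 0.223 CPM in N2.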

How the data were processed

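Poly(A) RNA of whole adults was sequenced as 50-base single reads from a stranded kit, per the labels' protocols, in 6 libraries. The deposited table gives whole-number read counts per gene and library, per the file headers. Per the submitters' processing notes, the tools were DESeq, DESeq2, HTSeq and STAR and the build WBcel235. For the annotation release and strand setting, the sources used here name none. Per the file headers, the authors also deposited a mean RPKM per group and a log2 fold change with its adjusted p-value for SIN to WT. They further deposited 22G RNA values in RPM, an enrichment score (taken here as a fraction), a second normalized 22G RNA score and germline classes. The 22G RNA input column was not used here (1 column).

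Counts were fitted with edgeR 4.0.16 (limma 3.58.1, R 4.3.3): TMM scaling, filterByExpr (minimum count 10, minimum total 15), a robust quasi-likelihood fit of 3 group means over 6 libraries, and Benjamini-Hochberg adjustment over 15404 genes at 0.05. The fit had 3 residual degrees of freedom, a prior of 3.58 and a coefficient of biological variation of 0.219. CPM are TMM-scaled; RPKM were computed per library from the counts and deposited lengths. Count ratios carry exact conditional intervals at 95%. Each SE of an edgeR log2 fold change is its absolute value divided by the square root of the quasi-likelihood F statistic. The fit was tested on simulated data. Replicate libraries correlated at 0.989 (SIN), 0.983 (WT) and 0.965 (N2) over log2 CPM.

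The 10 genes and all lists were chosen with earlier results of these data known, so their counts are descriptions. From each further list, the rule named at most 6 called genes with the smallest p in SIN versus WT, and the 5 genes most like the set; spe-46 and smz-1 lie outside it and were named after their values were seen. Alternatives were DESeq2 1.42.0, other scalings, no filter, a replicate block, the 2 groups alone, and leaving out each library.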

Additional observations from a re-analysis of the deposited data

How the results depend on the processing

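With 2 libraries a strain, the test depends on the spread shared by all strains. Fitting only the 2 groups compared called 6521 genes in SIN versus WT (3922 in the fit of all 6 libraries), 1914 in SIN versus N2 (3942) and 0 in WT versus N2 (17), where it called 0 of the sperm genes in place of 1. With no filter, 5767 genes were called in SIN versus WT, 5922 in SIN versus N2 and 2217 in WT versus N2. Of the sperm genes, 8, 8 and 4 were called in these comparisons. WT versus N2 gave 29 genes under RLE scaling, 10 under upper-quartile scaling (0 sperm genes) and 1151 with DESeq2 (3 sperm genes). Upper-quartile scaling moved the median log2 fold change in SIN versus WT to 0.17, from 0.04, and 65.5% of calls there were rises, beside 47.7%; in SIN versus N2 it was 59.6% beside 48.2%. The 6 rises of sperm genes in SIN versus WT held under both scalings.

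The deviations of same-numbered libraries correlated at 0.322 (SIN and WT), 0.376 (SIN and N2) and 0.251 (WT and N2), but 2 numbers do not establish pairing. With the replicate block, 8 sperm genes were called in SIN versus WT and 8 in SIN versus N2, with adjusted p-values of 0.00853 and 0.0038 for gsp-3 and 0.0146 and 0.00246 for gsp-4, and 253 genes in WT versus N2.

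Leaving out 1 library gave 361 to 6751 genes in SIN versus WT, 704 to 6028 in SIN versus N2 and 0 to 4201 in WT versus N2. Sperm genes called ran from 1 to 6, 2 to 5 and 0 to 3. Without any 1 of the SIN or WT libraries, spe-15 alone remained called in SIN versus WT, and adjusted p-values reached 0.0714 for fer-1, 0.0996 for spe-6, 0.127 for gska-3, 0.194 for spe-4 and 0.245 for spe-9. No log2 difference in either SIN comparison changed sign. In WT versus N2, spe-9 turned to 0.085 without WT replicate 1 and 0.74 without N2 replicate 1 (lowest -1.18), spe-10 to -0.42 without WT replicate 2 (highest 2.71) and gsp-3 to -0.91 without WT replicate 2 (highest 4.30); the cause was not tested. Of 328 alternatives over 27 values, 267 kept direction and call, 32 lost the call, 25 gained it and 4 reversed. Low counts limit spe-10 and spe-38.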
